A study of Mus musculus with 33 samples.

Results

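Neurotransmitter receptor subunits are the proteins through which a neuron, glial cell or muscle cell reads acetylcholine, GABA, glycine, glutamate, serotonin or purines such as ATP. Here they were followed in cultured enteric neural crest cells (ENCCs), the cells that colonise the gut and form its nervous system, in the presence or absence of GDNF, and in whole embryonic gut. They were chosen by gene symbol. The naming pattern covered the muscarinic, nicotinic, GABA-A, GABA-B, ionotropic and metabotropic glutamate, glycine, serotonin, P2X and P2Y families. No measured value enters this rule, but earlier results of these data were known when it was chosen. The rule gave 89 genes of the 18193 with a symbol of their own on the array, and 167 of 34945 probe sets. Of the 89, 60 encode subunits of ligand-gated channels and 29 encode receptors that couple to G proteins.

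Ligand-gated channels are built from several subunits around a pore and act fast, while receptors coupled to G proteins act through second messengers. In the gut, fast excitation between enteric neurons runs mainly through nicotinic receptors, with ATP at P2X channels and serotonin at its ligand-gated channel as further fast signals. GDNF acts on ENCCs through the receptor tyrosine kinase RET and is known to drive their survival, migration and differentiation into neurons.

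GDNF-treated ENCCs and untreated ENCCs came from C57BL/6 mice transgenic for Wnt1-Cre and a LoxP/R26-YFP reporter, so both groups carried the transgenes and were sorted for YFP, which the Wnt1 promoter's Cre turns on in neural crest derivatives. The guts were taken at embryonic day 14.5, and the cells of each gut were split over a pair of wells, 1 of which received 50 ng/ml GDNF. Both wells held fibronectin and a medium with N2, B27, FGF and EGF. Whole guts of wild-type C57BL/6 embryos of the same age, dissected from duodenum to anus and carrying no reporter, were the tissue for comparison. Their cell type label names enteric neural crest cells, in conflict with their titles and sources, by which they were grouped. The 9 GDNF-treated RNAs were read on 13 arrays, the 9 untreated RNAs on 12 and the 8 whole guts on 1 each, 33 in all. The sources used here do not state the culture time.

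Values are scores, which rank a probe set within its array on a normal scale that runs from -4.08 to 4.08 with 0 in the middle. They also appear to be centred on the ENCC arrays of a batch. Whether they were also scaled by a gene's own variation among ENCC arrays was not tested. A difference is counted in units of this score. It is neither a fold nor a level, and genes are not compared in abundance. The 7 ENCC RNAs that both batches share correlated between batches at 0.117 to 0.324 over probe sets. The lowest was that of the untreated well of gut 3, whose batch 2 array correlated at 0.159 with another untreated gut, and counts are also given without that array. Between whole guts the correlation was 0.902 to 0.952. Of the 9 guts, 8 gave both wells in batch 1 and 4 in batch 2, and whole guts were read in batch 2 alone. In the GDNF comparison the score given for a well is the mean over its arrays of either batch. Differences are instead taken within a batch. The untreated well of gut 2 was read in batch 2 alone, so the difference of gut 2 uses that batch only.

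The first comparison asked which receptor genes change when ENCCs are given GDNF. The scores of 24 of the 89 members rose and those of 5 fell, and 60 did not pass the test, a moderated limma test on the 9 within-gut differences with Benjamini-Hochberg adjustment over all genes and a threshold of 0.05. GDNF changed many genes: 31.5% of all genes were called, 18.3% as higher and 13.2% as lower, against 27.0% and 5.62% of the members. The largest rises were those of Chrnb4, a subunit of the ganglionic nicotinic receptor, and Glrb, the glycine receptor subunit that anchors the channel at synapses. The members that fell were Htr3a, Chrnb1, Grik1, P2rx5 and Gabrp. The median difference over all members was 0.29, and over all genes 0.01. Of the channel subunits, 18 of 60 rose and 5 fell, and of the receptors coupled to G proteins 6 of 29 rose and 23 were not called. In bulk RNA, a larger share of cells of a type and more RNA per cell cannot be told apart.

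**Figure D1:**
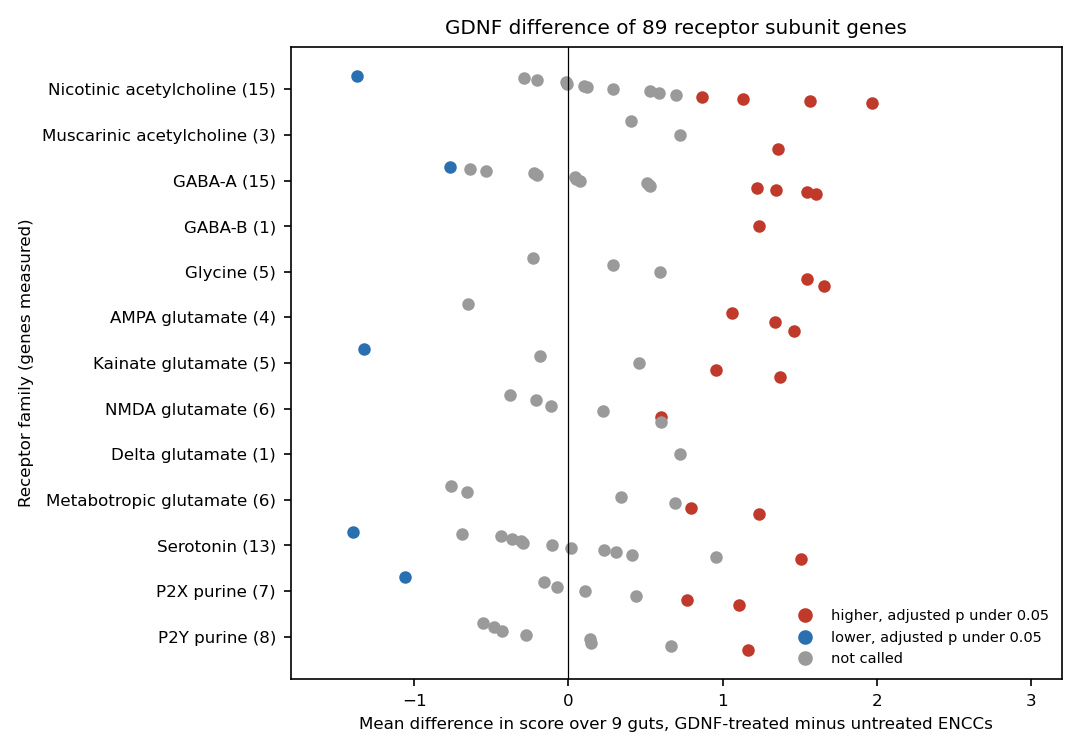
Mean difference in score over 9 guts, GDNF-treated minus untreated ENCCs, for each of the 89 members, 1 point per gene, on rows by receptor family with the number of genes measured. Red points are the 24 genes called higher, blue the 5 called lower and grey the 60 not called. The nicotinic and GABA-A rows hold 4 called higher and 1 called lower each, and 3 of the 4 AMPA subunits lie on the higher side.

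Acetylcholine receptors were led by the ganglionic nicotinic subunits. Of 18 members, 5 rose (27.8%), 1 fell (5.56%) and 12 did not pass, where 18.3% of all genes rose and 13.2% fell. Chrnb4 scored 0.70 to 1.73 with a median of 0.94 in GDNF-treated wells, against -2.06 to -0.06 with a median of -0.80 in untreated wells. The score was higher in the treated well of 9 of 9 guts, the groups did not overlap, and the difference was 1.97 ± 0.48 (SD, n = 9, adjusted p = 6.45e-05). Chrna5, an accessory subunit that joins the same channel, scored -0.61 to 1.02 with a median of 0.90 in treated wells and -1.87 to 0.08 with a median of -1.06 in untreated wells. The groups overlapped, yet 9 of 9 guts were higher with GDNF, by 1.57 ± 0.48 (SD, n = 9, adjusted p = 0.000139).

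Chrna3, the ligand-binding partner of Chrnb4 in autonomic ganglia, scored -0.25 to 1.41 with a median of 0.38 in treated wells and -2.09 to 0.50 with a median of -0.50 in untreated wells. It was higher in 9 of 9 guts, by 1.13 ± 0.54 (SD, n = 9, adjusted p = 0.00158). Its 3 probe sets were unequal, at 1.52, 1.48 and 0.40, and with the last of these alone, which correlated best between batches, the call was lost. Chrnb2, a subunit of neuronal nicotinic receptors, rose by 0.87 ± 0.70 in 7 of 9 guts (adjusted p = 0.0164). Its 3 probe sets gave 1.83, 0.58 and 0.19. Chrna7, which forms channels of 1 kind of subunit, differed by -0.20 ± 1.32 (adjusted p = 0.729).

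Of the subunits of the muscle-type nicotinic receptor, 1 was called, and it fell. Chrnb1, the beta subunit of that receptor, scored -1.28 to 0.08 with a median of -0.71 in treated wells and -0.95 to 1.90 with a median of 0.59 in untreated wells. It was lower in 8 of 9 guts and differed by -1.37 ± 0.69 (SD, n = 9, adjusted p = 0.000908). The exception was gut 1, at 0.24. Its partners Chrna1, Chrnd, Chrng and Chrne, at 0.53, 0.12, 0.10 and 0.70, did not pass. Of 5 skeletal muscle markers 1 was called higher with GDNF and 4 were not called, and the part of such cells in the fall of Chrnb1 was not tested.

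Of the muscarinic receptors, Chrm3, which couples to phospholipase C and in the gut drives smooth muscle contraction, rose by 1.36 ± 0.97 in 8 of 9 guts (SD, n = 9, adjusted p = 0.00355). Its scores were -0.32 to 2.29 with a median of 0.44 in treated wells and -2.21 to 1.46 with a median of -0.88 in untreated wells, which overlap widely, and its call was lost with batch 1 alone. Chrm1 and Chrm4 differed by 0.41 ± 0.60 and 0.73 ± 1.45 and did not pass.

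Chrna5, Chrna3 and Chrnb4 stand next to each other on chromosome 9 of the mouse reference assembly GRCm38.p6, and each of them rose. Chrna5 and Chrna3 overlap in that annotation, and whether probes lie in the overlap was not tested. Of 15 pairs of members that are next neighbours among protein-coding genes, 4 had both members called higher, 4 had 1 called higher, 1 had 1 called lower and 6 had neither called. Besides those of the nicotinic cluster, the pairs with both called higher were Gria2 with Glrb on chromosome 3 and Gabrg3 with Gabra5 on chromosome 7. The pairs of the nicotinic cluster share Chrna3, and the share of such pairs among all genes was not counted. Taken singly, 27.0% of members and 18.3% of all genes were called higher. The promoter windows of the nicotinic cluster are shown because its genes are neighbours that were each called higher. Each is a RefSeq window of 300 bases, 250 before and 50 after an annotated start in GRCm38.p6, read 5′ to 3′ on the strand of the gene. Capitals mark the GC box GGGCGG and the E-box CAGCTG on either strand. Chrna5 has 2 annotated starts on the plus strand, with windows at chr9:54980630-54980929 and chr9:54981238-54981537. Chrna3 (chr9:55026513-55026812) and Chrnb4 (chr9:55048495-55048794) lie on the minus strand.
Chrna5, first start: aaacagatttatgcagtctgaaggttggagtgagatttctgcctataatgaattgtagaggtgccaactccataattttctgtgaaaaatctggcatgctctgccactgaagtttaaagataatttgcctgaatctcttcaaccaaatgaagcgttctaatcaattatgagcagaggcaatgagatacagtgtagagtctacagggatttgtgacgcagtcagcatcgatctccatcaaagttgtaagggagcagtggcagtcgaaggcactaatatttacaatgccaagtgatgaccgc
Chrna5, second start: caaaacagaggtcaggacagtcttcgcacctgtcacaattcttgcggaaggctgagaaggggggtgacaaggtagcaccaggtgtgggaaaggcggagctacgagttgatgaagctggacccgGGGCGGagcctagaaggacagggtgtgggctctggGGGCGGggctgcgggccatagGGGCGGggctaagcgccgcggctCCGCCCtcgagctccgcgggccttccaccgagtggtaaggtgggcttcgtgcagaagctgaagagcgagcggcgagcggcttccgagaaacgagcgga
Chrna3: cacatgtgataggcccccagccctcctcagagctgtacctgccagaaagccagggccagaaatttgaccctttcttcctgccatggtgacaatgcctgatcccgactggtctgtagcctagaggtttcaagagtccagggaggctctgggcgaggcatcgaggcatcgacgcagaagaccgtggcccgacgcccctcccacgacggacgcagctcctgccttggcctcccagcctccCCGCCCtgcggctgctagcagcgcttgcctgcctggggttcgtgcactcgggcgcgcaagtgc
Chrnb4: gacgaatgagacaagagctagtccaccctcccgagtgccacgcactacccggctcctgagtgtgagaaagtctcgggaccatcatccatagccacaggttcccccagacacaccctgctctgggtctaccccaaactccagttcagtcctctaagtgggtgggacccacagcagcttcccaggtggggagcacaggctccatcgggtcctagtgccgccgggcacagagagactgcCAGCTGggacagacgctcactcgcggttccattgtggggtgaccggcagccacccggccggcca
The second Chrna5 window held 4 GC boxes, that of Chrna3 held 1, and that of Chrnb4 held 1 E-box and 0 GC boxes. The first Chrna5 window held 0 of either motif and was 41.3% G and C, against 65.0% in the second. Of all 32851 windows of this length, 35.7% held a GC box and 16.3% this E-box. Windows were found for 66 of the 89 members, 82 in all, of which 46.3% held a GC box and 17.1% the E-box. Of the 23 windows of members that rose with GDNF, 43.5% held a GC box and 8.7% the E-box.

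Glycine receptors are the inhibitory chloride channels best known from spinal cord, and in them the beta subunit and an alpha subunit rose. Of 5 members, 2 rose (40%), where 18.3% of all genes did, and Glra1, Glra3 and Glra4 were not called. Glrb scored 0.45 to 1.07 with a median of 0.69 in treated wells and -1.94 to -0.27 with a median of -0.90 in untreated wells, without overlap. It was higher in 9 of 9 guts, by 1.66 ± 0.50 (SD, n = 9, adjusted p = 0.000107). Its 2 probe sets both gave 1.66. Glra2, the alpha subunit of the embryonic receptor, scored 0.03 to 1.64 with a median of 0.62 in treated wells and -1.22 to -0.59 with a median of -0.75 in untreated wells, also without overlap. It rose by 1.55 ± 0.47 in 9 of 9 guts (SD, n = 9, adjusted p = 0.000141).

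Of the GABA receptors, 5 of 16 members rose (31.25%) and 1 fell (6.25%), where 18.3% and 13.2% of all genes did. Among GABA-A subunits, which form the main inhibitory chloride channel of the brain, the risers were Gabra5, Gabrg3, Gabrb2 and Gabrg1. Gabra5, an alpha subunit found in receptors outside synapses in hippocampus, scored -0.16 to 2.60 with a median of 0.21 in treated wells and -2.01 to -0.52 with a median of -0.94 in untreated wells. The groups did not overlap, but the difference of 1.61 ± 1.41 (SD, n = 9, adjusted p = 0.00695) holds 1 value of 5.00 in gut 2, and the other 8 ranged from 0.66 to 2.68. The value of 5.00 is from batch 2 alone, while the score ranges rest on means over batches, so it can exceed their span. Without gut 2 the mean difference was 1.18. Gabrg3, a gamma subunit and its chromosomal neighbour, scored -0.06 to 1.41 with a median of 0.48 in treated wells and -1.77 to -0.39 with a median of -0.84 in untreated wells. It rose by 1.55 ± 0.58 in 9 of 9 guts without overlap (SD, n = 9, adjusted p = 0.000234), and its 4 probe sets lay between 1.31 and 1.84.

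Gabrb2, a beta subunit, scored 0.20 to 1.82 with a median of 0.43 in treated wells and -1.42 to 0.80 with a median of -0.54 in untreated wells. The ranges overlapped, and the difference was 1.34 ± 0.58 with 9 of 9 guts higher (SD, n = 9, adjusted p = 0.000599). Gabrg1, the other gamma subunit called, rose by 1.22 ± 0.68 without overlap, and so did Gabbr1, the GABA-binding subunit of the G-protein-coupled GABA-B receptor, by 1.24 ± 0.73. Of the 4 Gabbr1 probe sets, those of the best correlation between batches gave 2.00 and 1.91, and the others 0.85 and 0.19. A GDNF difference itself raises that correlation, so it does not decide between the probe sets. Gabrp, the pi subunit, which is known from epithelia and reproductive tissue, was lower in 8 of 9 guts, with a difference of -0.77 ± 0.60 (SD, n = 9, adjusted p = 0.0204). That call was lost under 5 of the 17 alternatives. Of 9 gut epithelium markers limma called 0, also at an unadjusted p under 0.05, with a mean difference of -0.06. The part of such cells in the fall of Gabrp was not tested. Gabra3, an alpha subunit, differed by 0.53 ± 0.89 (adjusted p = 0.184).

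Glutamate receptors were the largest group, with 8 of 22 members higher (36.4%) and 1 lower (4.55%), where 18.3% and 13.2% of all genes were. AMPA subunits, which carry fast excitation in the brain, supplied 3 of the 8. Gria2, the subunit whose edited form keeps calcium out of the channel, scored -0.05 to 1.60 with a median of 0.30 in treated wells and -1.74 to -0.07 with a median of -0.89 in untreated wells. The ranges did not overlap, and the difference was 1.46 ± 0.66 with 9 of 9 guts higher (SD, n = 9, adjusted p = 0.000507). Gria1 scored -0.41 to 1.59 with a median of 0.69 in treated wells and -1.62 to -0.06 with a median of -0.74 in untreated wells, with slight overlap, and rose by 1.34 ± 0.52 (SD, n = 9, adjusted p = 0.000479). Gria4 rose by 1.06 ± 0.66. The fourth subunit, Gria3, differed by -0.65 ± 1.57 and was higher in 3 of 9 guts, with an adjusted p of 0.288.

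Kainate subunits went both ways. Grik2, a principal subunit that forms channels by itself, scored -0.56 to 1.37 with a median of 0.84 in treated wells and -1.43 to 0.04 with a median of -0.98 in untreated wells, and rose by 1.37 ± 0.74 in 8 of 9 guts (SD, n = 9, adjusted p = 0.00112). Grik5, a subunit that works only together with a principal one, rose by 0.96 ± 0.84 in 8 of 9. Grik1, also a principal subunit, scored -1.01 to 0.13 with a median of -0.65 in treated wells and -0.82 to 2.03 with a median of 0.80 in untreated wells. It was lower in 8 of 9 guts, with a difference of -1.33 ± 0.94 (SD, n = 9, adjusted p = 0.00352), with gut 1 at 0.96. Grik3 and Grik4 were not called.

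Of 6 NMDA members, the only call was Grin3a, a modulatory subunit, at 0.60 ± 0.49 with an adjusted p of 0.0474 that was lost under 12 of 17 alternatives. Grin2a, Grin2b, Grin2c, Grin2d and Grin3b had differences from -0.38 to 0.60. Among the metabotropic receptors Grm4, which lowers cyclic AMP, rose by 1.24 ± 0.50 in 9 of 9 guts. Grm5, which couples to phospholipase C, was at 0.80 ± 0.89 with an adjusted p of 0.047, and lost its call under 11 alternatives.

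**Figure D2:**
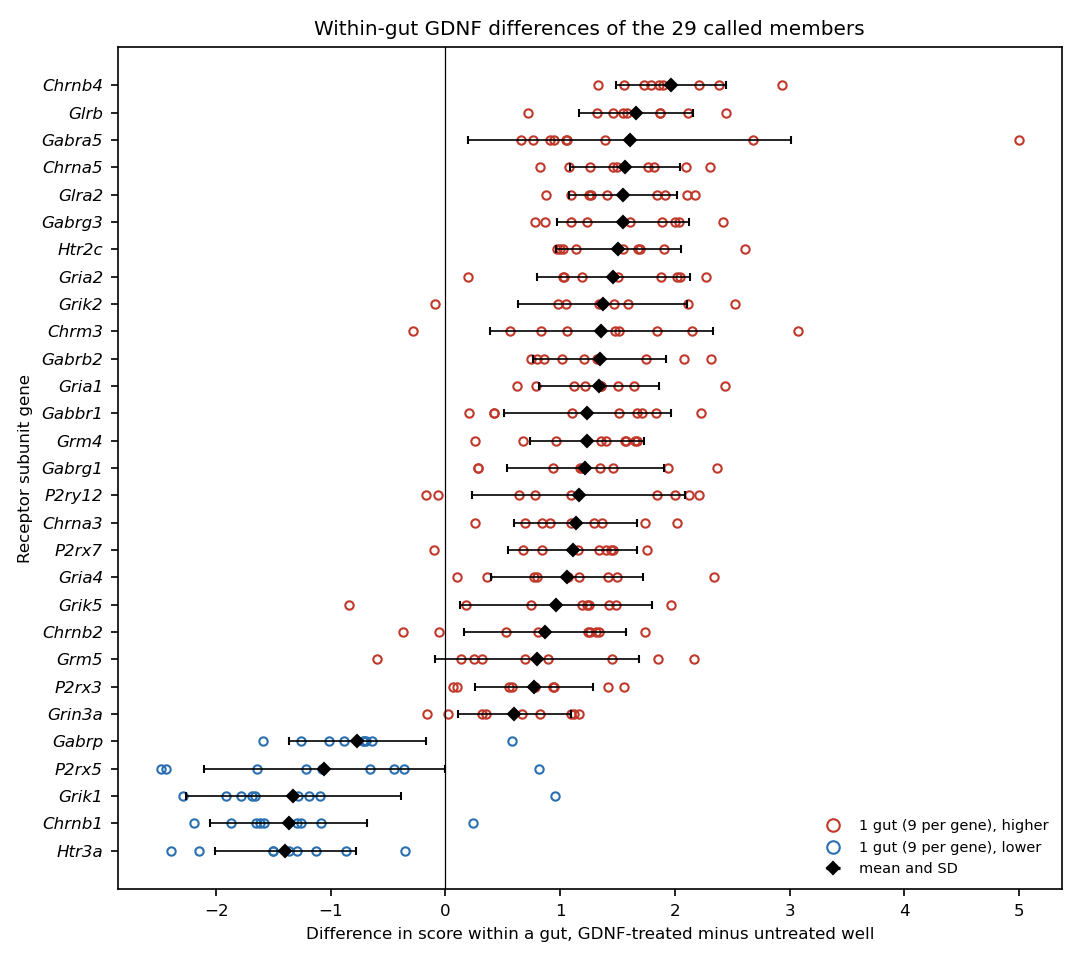
Difference in score within each gut, GDNF-treated minus untreated well, for the 29 called members, ordered by their mean. Open circles are the 9 guts, red for members called higher and blue for members called lower, and diamonds with bars are the mean and SD. For Gabra5 the circle of gut 2 stands at 5.00, and for Chrnb1, Grik1, P2rx5 and Gabrp 1 gut lies above 0 while the others lie below.

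Serotonin receptors split. Of 13 members, 1 rose and 1 fell (7.69% each), where 18.3% and 13.2% of all genes did, and 11 did not pass. Htr2c, a receptor that signals through phospholipase C and is best known from brain and choroid plexus, scored -0.54 to 1.47 with a median of 0.61 in treated wells and -1.76 to -0.10 with a median of -0.73 in untreated wells. It was higher in 9 of 9 guts, by 1.51 ± 0.54 (SD, n = 9, adjusted p = 0.000239). Htr3a, the subunit that every serotonin-gated channel needs, scored -1.85 to 0.01 with a median of -0.77 in treated wells and -1.50 to 1.60 with a median of 1.06 in untreated wells. It was lower in 9 of 9 guts, with a difference of -1.40 ± 0.62 (SD, n = 9, adjusted p = 0.000549), the only member with that pattern. Htr3b, which joins Htr3a in the channel and is its neighbour on chromosome 9, differed by 0.31 ± 1.20 and was higher in 5 of 9 guts (adjusted p = 0.556). Htr4, which raises cyclic AMP and promotes motility, differed by -0.30 ± 0.49, and Htr2b by -0.44 ± 1.17, both uncalled.

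Of 15 purine receptors, 3 rose (20%) and 1 fell (6.67%), where 18.3% and 13.2% of all genes did. P2ry12, an ADP receptor best known from platelets and microglia, scored -0.01 to 2.17 with a median of 0.74 in treated wells and -1.39 to 1.82 with a median of -0.04 in untreated wells, and rose by 1.16 ± 0.93 in 7 of 9 guts (SD, n = 9, adjusted p = 0.00779). P2rx7, an ATP-gated channel of macrophages and glia, rose by 1.11 ± 0.56, and P2rx3, the channel of sensory neurons, by 0.77 ± 0.51. Of 9 macrophage and leukocyte markers limma called 0, also at an unadjusted p under 0.05, and their mean differed by 0.10. The part of such cells in the rises of P2ry12 and P2rx7 was not tested. P2rx5, another ATP-gated channel, was lower in 8 of 9 guts, with a difference of -1.06 ± 1.05 (SD, n = 9, adjusted p = 0.0207), a call lost under 4 of 17 alternatives. P2rx2, the partner of P2rx3 in enteric and sensory neurons, differed by -0.16 ± 0.81, and P2ry1, which carries purinergic inhibition from enteric neurons to muscle, by -0.55 ± 0.94. Neither passed.

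Among all 89 members, 17 moved the same way in all 9 guts, 16 of them higher and 1 lower, where 17.8% of all genes did so. The scores of treated and untreated wells did not overlap for 8 members, Chrnb4, Glrb, Glra2, Gria2, Gabra5, Gabrg1, Gabrg3 and Gabbr1, where 5.55% of all genes did not overlap. The highest correlation between batches of a member's probe sets had a median of 0.829 among the 29 called members and of 0.302 among the 60 not called. Among all genes the same medians were 0.801 and 0.385. The correlation runs over treated and untreated RNAs together, so a GDNF difference itself raises it. These medians therefore do not test the calls. With the 4 guts of batch 2 alone, 0 members were called by limma, and 23 (25.8%) had an unadjusted p under 0.05, where 19.3% of all genes did. Without gut 1, 9 members were called lower in place of 5, Gria3, Grm3, Grm8 and Htr5b being added. Without the batch 2 array of the untreated well of gut 3, 28 were higher and 5 lower.

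Neuronal genes rose with GDNF as well. Of 12 enteric neuron markers, 9 were called higher and 3 were not called, and their mean difference was 1.21, with a range of 0.73 to 1.62 over the 9 guts. Within each gut the median of the 89 members lay above that of all genes, at 0.07 to 0.58 for members and 0.00 to 0.18 for all genes. Glial markers differed by 0.56 (2 of 4 called higher), mesothelial markers by 0.63 (2 of 5 called higher) and gut mesenchyme markers by -0.74 (4 of 8 called lower). The part of these cell types in the receptor differences was not tested. Hybridisation controls, spiked in before the array step, were lower in the treated wells of 6 of 9 guts, by 0.72 on average. With their difference as a covariate 28 members were called. The 46 ribosomal protein genes of the array fell by 0.85 on average, in 9 of 9 guts, and their part was likewise not tested.

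**Figure D3:**
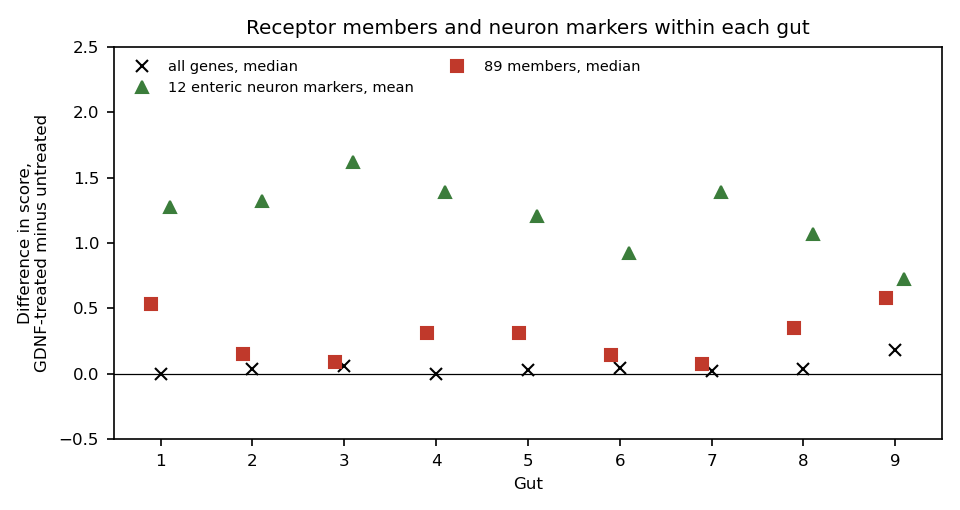
Difference in score, GDNF-treated minus untreated well, in each of the 9 guts. Red squares are the median of the 89 members, green triangles the mean of 12 enteric neuron markers and crosses the median of all 18193 genes. The neuron markers lie between 0.73 and 1.62, and the members between 0.07 and 0.58, above the median of all genes in each gut.

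The second comparison set ENCCs against the organ they came from, within batch 2, with 4 GDNF-treated or 4 untreated wells against 8 whole guts. Most receptor calls were higher in ENCCs. With GDNF, 39 of 89 members were higher and 9 lower than in whole gut, where 25.1% of all genes were higher and 26.0% lower, 51.0% in all. Without GDNF, 29 were higher and 3 lower, where 19.8% of all genes were higher and 22.8% lower, 42.6% in all. The spread of whole guts was small, with a median SD over genes of 0.154 against 0.709 in treated and 0.755 in untreated ENCCs, and this narrows the pooled error of the fit. On simulated data with the spreads of either comparison the pooled fit made far more false calls than its threshold allows, so its calls against whole gut are read beside those with the spread of ENCCs alone. With the spread of the 4 ENCC guts alone, 21 members were higher and 2 lower with GDNF, where 14.7% and 13.1% of all genes were so called, and 13 were higher and 2 lower without GDNF, where the shares were 8.70% and 11.9%. Without untreated gut 2, 3 or 9, the members called lower without GDNF were 7, 7 and 5 in place of 3. Both comparisons use the same whole guts, and their ENCC wells enter the first comparison too, so the values stand side by side and their overlap is not a result. The scores of ENCC wells and whole guts did not overlap for 33 members with GDNF, where 34.9% of all genes did not, and for 23 without GDNF, where the share was 27.6%. Whole guts also differ from ENCCs in genotype and in not having been cultured, and these cannot be told apart from the tissue.

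**Figure D4:**
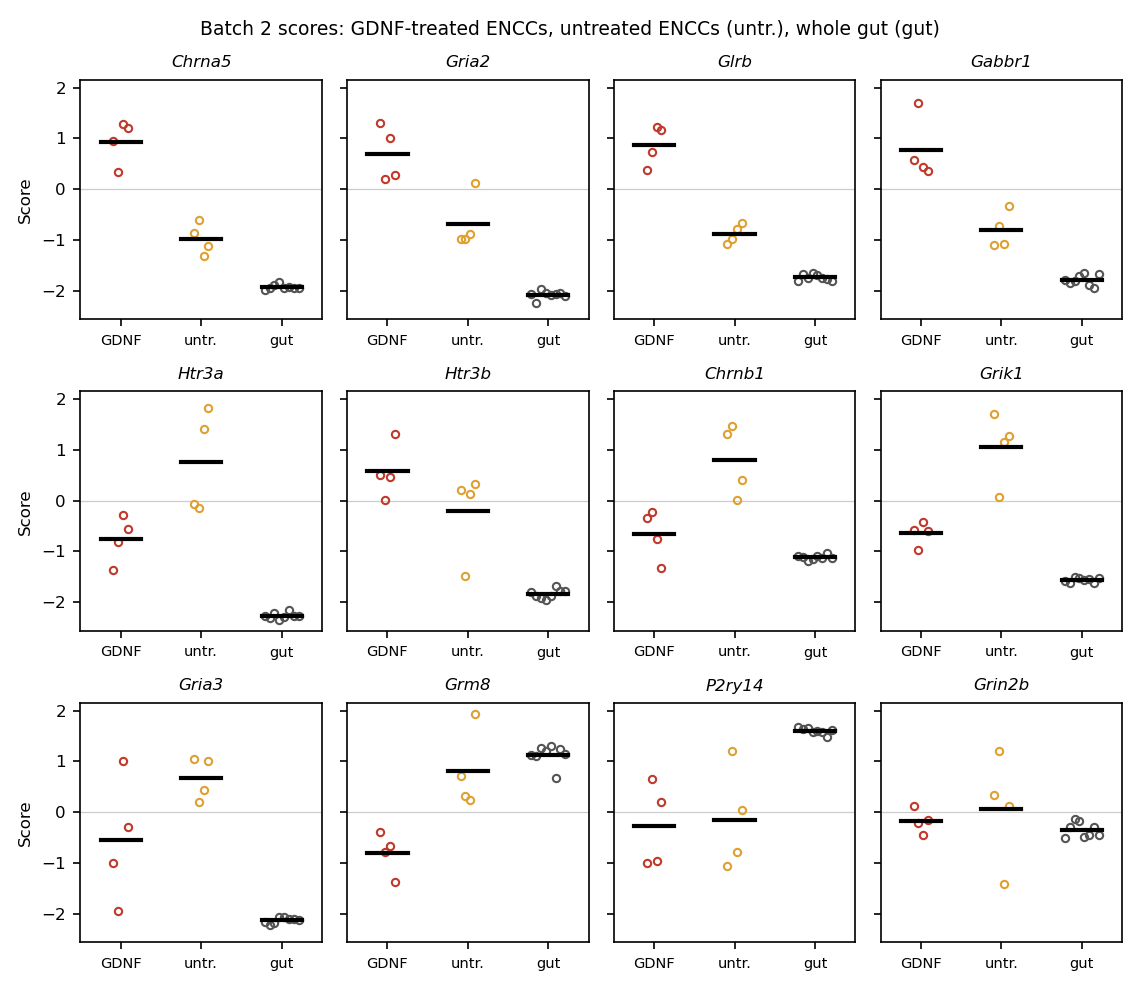
Scores in batch 2 of 12 members in 4 GDNF-treated ENCC wells (GDNF), 4 untreated ENCC wells (untr.) and 8 whole guts (gut), 1 point per array with the mean as a line. Chrna5, Gria2, Glrb and Gabbr1 stand highest with GDNF, Htr3a, Chrnb1, Grik1 and Gria3 highest without it, and P2ry14 highest in whole gut. Grin2b stands for the members called in neither comparison.

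Among acetylcholine receptors, 7 of 18 were higher (38.9%) with GDNF than in whole gut and 1, Chrne, was lower (5.56%). Without GDNF 5 were higher (27.8%). Of all genes 25.1% were higher and 26.0% lower with GDNF, and 19.8% were higher without it. Under the spread of ENCCs alone 4 were higher with GDNF, 2 were higher without it and 0 were lower. In that setting 14.7% of all genes were higher with GDNF and 8.70% without it. Chrna5 scored 0.95, 0.33, 1.27 and 1.20 in the treated wells of guts 2, 3, 8 and 9 and -0.87, -0.62, -1.31 and -1.12 in the untreated wells, against -1.98 to -1.83 with a median of -1.94 in whole guts. All ENCC wells lay above all whole guts, by 2.86 with GDNF (adjusted p = 2.1e-08, or 0.00362 with the spread of ENCCs alone) and by 0.95 without it (adjusted p = 0.000269, or 0.0825). Chrna3 and Chrnb4 lay above whole gut by 2.03 and 2.29 with GDNF and by 1.15 and 0.74 without it. With the spread of ENCCs alone, the call of Chrnb4 without GDNF was lost (adjusted p = 0.178) and that of Chrna3 held (0.0368). Chrnb1 scored -0.34, -0.23, -0.75 and -1.32 in treated wells and 1.31, 1.46, 0.02 and 0.41 in untreated wells, against -1.19 to -1.03 with a median of -1.11 in whole guts. Untreated ENCCs stood 1.91 above whole gut (adjusted p = 2.12e-05, or 0.00278), and the difference of treated ENCCs, 0.45, lost its call with their spread alone (adjusted p = 0.31). Chrm3 was 1.54 above whole gut with GDNF (adjusted p = 0.00109) and 0.16 without it (0.666), or 0.54 (adjusted p = 0.0212) without untreated gut 9. Chrna7 was not called in either.

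Of 16 GABA receptor members, 5 were higher (31.25%) and 1 lower (6.25%) with GDNF, where 25.1% and 26.0% of all genes were. Without GDNF 3 were higher (18.75%), where 19.8% of all genes were. Of the 5, Gabbr1, Gabrb2 and Gabrg3 held with the spread of ENCCs alone, and all 3 calls without GDNF were lost. In that setting 14.7% of all genes were higher with GDNF and 8.70% without it. Gabbr1 scored 0.57, 1.69, 0.44 and 0.35 in treated wells and -1.10, -0.72, -1.08 and -0.33 in untreated wells, against -1.95 to -1.66 with a median of -1.79 in whole guts, without overlap. It stood 2.55 above whole gut with GDNF (adjusted p = 6.56e-07, or 0.00426 with the spread of ENCCs alone) and 0.98 without it (adjusted p = 0.000417, or 0.0745). Of 5 glycine receptor members, 3 were higher (60%) and 1 lower (20%) with GDNF, where 25.1% and 26.0% of all genes were. Without it 3 were higher (60%), where 19.8% of all genes were. Glra2 and Glrb held with GDNF under the spread of ENCCs alone, and all 3 calls without it were lost. Glrb scored 0.38, 0.73, 1.23 and 1.17 in treated wells and -1.08, -0.98, -0.79 and -0.67 in untreated wells, against -1.81 to -1.65 with a median of -1.75 in whole guts. It stood 2.62 above whole gut with GDNF (adjusted p = 3.49e-08) and 0.86 without it (adjusted p = 0.000289, lost at 0.112 with the spread of ENCCs alone). Glra1, the adult alpha subunit, was lower with GDNF, at -0.52, and higher without it, at 0.65, and neither held with the spread of ENCCs alone (adjusted p = 0.234 and 0.258). Gabrp was lower than in whole gut with GDNF, at -0.78, a call also lost in that setting (adjusted p = 0.128).

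Glutamate receptors, the largest group, had 12 of 22 higher (54.5%) and 1 lower (4.55%) with GDNF. Without it 9 were higher (40.9%) and 1 lower (4.55%). Of all genes 25.1% and 26.0% were so called with GDNF, and 19.8% and 22.8% without it. Under the spread of ENCCs alone the glutamate counts were 7 and 1 with GDNF, and 6 and 1 without it. In that setting the shares of all genes were 14.7% and 13.1% with GDNF, and 8.70% and 11.9% without it. The 4 AMPA subunits were higher with GDNF and 3 of them without it. Gria2 scored 1.30, 0.20, 1.01 and 0.29 in treated wells and -0.98, -0.99, -0.88 and 0.12 in untreated wells, against -2.23 to -1.96 with a median of -2.06 in whole guts. It stood 2.78 above whole gut with GDNF (adjusted p = 1.11e-07) and 1.39 without it (adjusted p = 8.41e-05), and both calls held with the spread of ENCCs alone. Gria3 scored -1.00, -1.94, 1.01 and -0.28 in treated wells, a wide spread, and 1.05, 0.19, 0.45 and 1.02 in untreated wells, against -2.23 to -2.06 with a median of -2.11 in whole guts. Untreated ENCCs stood 2.81 above whole gut (adjusted p = 1.15e-07, or 0.000213), and treated ENCCs 1.57 (adjusted p = 0.00386, lost at 0.0511). Gria4 was 2.37 above whole gut with GDNF and 1.33 without it.

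Kainate subunits were higher in 4 of 5 cases in each comparison (80%), where 25.1% of all genes were with GDNF and 19.8% without it. Grik1 scored -0.58, -0.97, -0.43 and -0.60 in treated wells and 1.71, 0.07, 1.16 and 1.28 in untreated wells, against -1.63 to -1.51 with a median of -1.55 in whole guts, so that both ENCC groups lay above the tissue without overlap. The difference was 0.92 with GDNF (adjusted p = 3.4e-05, or 0.0423 with the spread of ENCCs alone) and 2.62 without it (adjusted p = 1.51e-06, or 0.000353). Its probe sets disagreed with GDNF, at 1.95 and -0.11 against whole gut. Grik5 and Grik2 stood 2.13 and 2.54 above whole gut with GDNF, and 1.86 and 1.07 without it, the last of these lost with the spread of ENCCs alone (adjusted p = 0.0673). Of the 6 NMDA subunits limma called 0 in either comparison. At an unadjusted p under 0.05 it called 0 with GDNF and 1 without it, Grin3b, at 0.52 with an adjusted p of 0.0995.

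Of 6 metabotropic receptors, 3 were higher (50%) and 1 lower (16.7%) than in whole gut with GDNF, where 25.1% and 26.0% of all genes were. Without it 2 were higher (33.3%) and 1 lower (16.7%), where 19.8% and 22.8% of all genes were. Grm4, Grm5 and Grm7 were higher with GDNF, at 0.77, 0.95 and 1.37, and Grm3 and Grm7 without it, at 0.75 and 1.09. These 5 higher calls were lost under the spread of ENCCs alone, and the 2 lower ones held. Grm8, which lowers cyclic AMP, scored -0.39, -0.78, -0.68 and -1.37 in treated wells and 0.72, 0.32, 0.25 and 1.94 in untreated wells, against 0.67 to 1.30 with a median of 1.18 in whole guts. Treated wells lay below all whole guts, with a difference of -1.94 (adjusted p = 1.55e-06, or 0.00566), and untreated wells overlapped them, at -0.33 (0.35), or -0.70 (adjusted p = 0.00481) without untreated gut 9. Grm2, of the same signalling type, scored 1.25, -0.33, -1.78 and 1.98 in treated wells, a wide spread, and -0.97, -0.31, -0.63 and -0.07 in untreated wells, against 0.28 to 1.58 with a median of 1.12 in whole guts. Treated wells differed by -0.76 (adjusted p = 0.264), but by -1.32 (adjusted p = 0.0372) without treated gut 9 and by -0.069 without treated gut 8. Untreated wells differed by -1.53 (adjusted p = 0.000158, or 0.00858).

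Of 13 serotonin receptors, 7 were higher than in whole gut in each comparison (53.8%), and 1, Htr4, was lower with GDNF (7.69%). Of all genes 25.1% were higher and 26.0% lower with GDNF, and 19.8% and 22.8% without it. With the spread of ENCCs alone 3 were higher in each, Htr2c, Htr3a and Htr3b with GDNF and Htr2b, Htr3a and Htr3b without it, and 0 were lower. In that setting 14.7% of all genes were higher with GDNF and 8.70% without it. Htr3a scored -1.36, -0.82, -0.28 and -0.56 in treated wells and -0.06, -0.15, 1.41 and 1.82 in untreated wells, against -2.35 to -2.16 with a median of -2.28 in whole guts. This gene, which fell with GDNF, lay above whole gut with GDNF, by 1.51 (adjusted p = 8.15e-06, or 0.0121 with the spread of ENCCs alone), and by 3.02 without it (adjusted p = 4.32e-06, or 0.000255). Htr3b scored 0.51, 0.02, 0.46 and 1.32 in treated wells and 0.20, -1.48, 0.12 and 0.33 in untreated wells, against -1.97 to -1.68 with a median of -1.84 in whole guts. It stood 2.41 above whole gut with GDNF and 1.63 without it, both held with the spread of ENCCs alone. Htr2c stood 2.67 and 0.94 above whole gut, with and without GDNF, and the second call was lost in that setting (adjusted p = 0.084). Htr2b, which acts on smooth muscle and on interstitial cells of Cajal, was 1.14 above whole gut with GDNF (adjusted p = 0.0135, lost at 0.098) and 1.61 without it (adjusted p = 0.00238, or 0.0162). Htr4 was lower with GDNF, at -0.80 (adjusted p = 0.0013, lost at 0.0783), and at 0.05 without it.

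Purine receptors were called in both directions. With GDNF 5 of 15 were higher (33.3%) and 4 lower (26.7%) than in whole gut, where 25.1% and 26.0% of all genes were. Without it 2 were higher and 2 lower (13.3% each), where 19.8% and 22.8% of all genes were. Under the spread of ENCCs alone 2 purine receptors were higher and 1 lower in each. Of all genes 14.7% and 13.1% were so called with GDNF, and 8.70% and 11.9% without it. P2ry14, a receptor for UDP-sugars known from epithelium and immune cells, scored -1.00, 0.65, -0.96 and 0.20 in treated wells and -1.06, 1.20, -0.78 and 0.05 in untreated wells, against 1.49 to 1.68 with a median of 1.61 in whole guts. Both ENCC groups lay below all whole guts, with a difference of -1.88 with GDNF (adjusted p = 6.5e-05, or 0.0129 with the spread of ENCCs alone) and -1.75 without it (adjusted p = 0.000469, or 0.00779). P2rx1, the channel of smooth muscle and platelets, was at -0.86 and -0.85, and both calls were lost in that setting (adjusted p = 0.0541 and 0.124). With its probe set of the best correlation between batches the first was 0.05. P2ry13 and P2ry10, receptors of blood cells, were lower with GDNF at -0.66 and -0.43, and both were lost there (adjusted p = 0.146 and 0.287).

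Other purine receptors stood above whole gut, among them P2rx2 and P2ry1 of enteric neurons. P2rx2 scored 0.31, 0.23, 0.45 and 0.77 in treated wells, against -1.00 to -0.58 with a median of -0.76 in whole guts, a difference of 1.21 (adjusted p = 8.6e-06, or 0.0177), and 0.67 without GDNF (0.188). Its untreated wells scored 0.57, -2.05, 0.58 and 0.50, and the low value is the doubted array of gut 3, without which the difference was 1.32 (adjusted p = 1.76e-06). P2ry1 was 1.24 above whole gut without GDNF (adjusted p = 0.000616, or 0.0276) and at 0.03 with it. P2ry12 stood 1.41 above whole gut with GDNF (adjusted p = 0.000105, or 0.0177), and P2rx3 0.65 (adjusted p = 0.00693, lost at 0.147). P2ry6, a receptor for UDP known from macrophages, was 1.54 above whole gut with GDNF (adjusted p = 0.00482, lost at 0.0566) and 1.61 without it (adjusted p = 0.000531, or 0.0115).

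Cell type markers also differed between ENCCs and whole gut. In batch 2 the mean score of the 12 enteric neuron markers was 0.53 to 0.74 in GDNF-treated ENCCs and -1.01 to -0.20 in untreated ENCCs, against -1.88 to -1.81 in whole guts. All 12 were called higher than in whole gut in both ENCC groups. Of 5 ENCC progenitor markers, 4 were called higher than in whole gut with GDNF and 5 without it. Of 4 glial markers, 4 were called higher with GDNF and 2 without it. Smooth muscle markers were -0.35 to 0.25 in treated and -0.42 to 0.29 in untreated ENCCs, against 1.44 to 1.57 in whole guts, and macrophage and leukocyte markers -0.28 to 0.46 and -0.61 to 0.43, against 1.80 to 1.84. Of the 9 markers of gut epithelium 9 were lower in each ENCC group. Gut mesenchyme markers were less uniform. Of 8, 7 were lower and 1 was not called with GDNF. Without it 4 were lower, 1, Col1a1, was higher by 0.47, and 3 were not called. Of 5 skeletal muscle markers 2 were lower and 3 not called in each ENCC group. Scores do not say which markers are absent. The part of these cell types in the receptor differences was not tested.

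Receptors are held at synapses, folded and modulated by partner proteins, and 50 of a list of 55 such genes were measured. With GDNF 22 of the 50 rose and 5 fell, with a median difference of 0.62, where 18.3% and 13.2% of all genes were so called. Cnih2, an auxiliary subunit of AMPA receptors, rose by 1.88 ± 0.37 (SD, n = 9, adjusted p = 6.45e-05), and Dlg4, the scaffold of excitatory synapses known as PSD-95, by 1.81 ± 0.61 (adjusted p = 0.000106). Dlgap3, which binds that scaffold, rose by 1.75 ± 1.61 and Nlgn3, a synaptic adhesion protein, by 1.72 ± 0.65. The largest falls were those of Homer2, a scaffold of metabotropic glutamate receptors, at -1.12 ± 0.77, Gabarap, a trafficking partner of GABA-A receptors, at -1.11 ± 0.82, Dlgap4, at -1.09 ± 0.91, and Dlg1, at -1.08 ± 0.61. With the 4 guts of batch 2 alone limma called 0 partners, and 15 of 50 had an unadjusted p under 0.05, where 19.3% of all genes did.

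Against whole gut 26 partners were higher and 4 lower with GDNF, where 25.1% and 26.0% of all genes were so called, and 18 were higher and 4 lower without it, where the shares were 19.8% and 22.8%. With the spread of ENCCs alone, 17 of 50 were called with GDNF and 9 without it, where 27.8% and 20.7% of all genes were called. The largest differences with GDNF were those of Dlg2, Dlg4, Cacng4 and Nlgn3, at 3.00, 2.32, 2.26 and 2.18, and on the lower side Dlg1 and Homer2, at -1.37 and -1.13. Without GDNF Dlgap4, Dlg2, Gabarap and Shisa9 led, at 2.63, 2.11, 1.80 and 1.53. Shank3, a scaffold of excitatory synapses, and Lypd6, a modulator of nicotinic receptors, were lowest, at -1.45 and -1.34.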

How the data were processed

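Labelled RNA of 33 samples was read on Affymetrix arrays. RMA, which summarises probes on a log2 scale, is named in the submitters' processing notes without a version. The deposited values are a score and not log2 values: each array's 45101 sorted values equal normal quantiles of rank, with a largest deviation of 5e-06, and the mean of the 7 RNAs read in both batches hardly varies over probe sets (SD 0.0585 in batch 1 and 0.117 in batch 2). No label records these steps, and precision is limited by how many arrays there are.

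Probe sets with 1 gene symbol in the platform annotation, 64 control probe sets left out, were averaged per gene (34945 probe sets, 18193 genes). Dim probe sets could not be filtered. The naming rule can match further receptor genes, which were not analysed here. For GDNF, treated minus untreated scores were taken per gut and batch, guts 3, 8 and 9 entering as the mean of both batches, and fitted with limma 3.58.1 (lmFit, eBayes) in R 4.3.3. Against whole gut a fit of 2 groups used batch 2 alone. The p-values were adjusted by Benjamini-Hochberg over all genes at a threshold of 0.05, and the fits were tested on simulated data. There the GDNF fit kept to its threshold, and the pooled fits of both ENCC groups against whole gut made mostly false calls. Fits with the spread of the ENCC guts alone made no calls, true ones included. But only 200 of 18193 genes were changed there, and in the data the latter fits called 27.8% with GDNF and 20.7% without it. The simulated shares of missed and false calls thus do not carry over. Of unchanged genes, the pooled fits gave 17.6% (treated) and 18.4% (untreated) an unadjusted p under 0.05. That a gut gave both wells is stated in the labels' protocols. In batch 1 the deviations of wells of 1 gut correlated at 0.0250 to 0.305 (8 pairs). Whether embryos came from 1 litter is not in the labels.

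Genes named were those with the largest differences among the called (12 in each direction for GDNF, 8 for whole gut, 4 for partners) and a list of enteric receptors. The members and lists were chosen with earlier results of these data known. RefSeq symbols matched all 89 members. Alternatives were the pairing, batch, probe set, covariate, score scale, spread of the fit, title number as a block, and leaving out guts. The most reproducible probe set is the one that correlated best between batches, a correlation that a GDNF difference itself raises.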

Additional observations from a re-analysis of the deposited data

Results flagged for a closer look

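In 129 groups of 4 to 10 values of the named members, the highest or lowest value was set against the gap to its nearest neighbour, and 16 stood apart by Dixon's criterion. Chance flags about 1 in 20 groups.

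Among the within-gut differences, treated minus untreated, Gabra5 was at 5.00 in gut 2, where the other guts ranged from 0.66 to 2.68. Gut 1 stood apart for Chrnb1, at 0.24 where the others ranged from -2.19 to -1.08, and for Grik1, at 0.96 where they ranged from -2.29 to -1.09. Gabrp was at 0.58 in gut 9, with the others between -1.59 and -0.64.

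Among the 4 GDNF-treated wells of batch 2, gut 8 scored 2.02 for Htr2c (others 0.41 to 0.53) and -1.02 for P2ry13 (others -0.17 to -0.04). Gut 3 scored 1.69 for Gabbr1 (others 0.35 to 0.57), gut 9 scored -0.0892 for Chrna3 (others 0.57 to 0.65) and gut 2 scored 1.33 for Grm5 (others -0.26 to -0.09).

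Among the 4 untreated wells of batch 2, gut 3 stood apart for 3 members, at -1.48 for Htr3b (others 0.12 to 0.33), -1.12 for Chrnb4 (others -0.53 to -0.48) and -2.05 for P2rx2 (others 0.50 to 0.58). Gut 2 scored 0.72 for P2rx1 (others -0.17 to -0.05) and gut 9 scored 0.12 for Gria2 (others -0.99 to -0.88). Among the 8 whole guts, gut 6 scored 0.67 for Grm8 (others 1.10 to 1.30) and gut 1 scored 0.78 for P2ry13 (others 0.16 to 0.36).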

How the results depend on the processing

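Of the 29 members called for GDNF, 22 kept their call in each of 17 alternatives but batch 2 alone, where 0 members (0 higher, 0 lower) and 0 partners were called with 4 guts. The other 7 were Chrm3, Chrna3, Chrnb2, Gabrp, Grin3a, Grm5 and P2rx5. Without the pairing of wells (no replicate block), 26 members were called, and those called lower were 3, as with batch 1 alone. Leaving out 1 gut at a time gave 26 to 32 called members, 22 to 25 of them higher and 4 to 9 lower, and 24 to 29 partners.

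Against whole gut, treated ENCCs gave 48 called members, 23 with the spread of the ENCC guts alone (21 higher, 2 lower), 27 with array weights by group (25 and 2) and 18 with a replicate block of title numbers (16 and 2). The most reproducible probe set gave 5 lower. Partners were 30, and 17 and 12 with the ENCC spread and the block. Untreated ENCCs gave 32, then 15 (13 higher), 17 (16 higher, 1 lower) and 7 (6 and 1) in the same order, and 8 lower with the most reproducible probe set. Partners were 22, then 9, 10 and 4. Leaving out 1 ENCC gut gave 47 to 50 members with GDNF (38 to 41 higher, 8 to 12 lower) with 27 to 36 partners, and 33 to 41 without GDNF (26 to 36 higher, 4 to 7 lower) with 21 to 26 partners. Without the doubted array of untreated gut 3, 7 were lower. The cause of these changes was not tested, except that the block and the ENCC spread use fewer residual degrees of freedom. Of the called members, 17 of 48 with GDNF and 7 of 32 without it kept their call in every alternative.

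Signs turned for members with small differences. For GDNF, Chrna7 ran from -0.53 to 0.078 and P2rx2 from -0.32 to 0.0118 when 1 gut was left out, P2rx2 was at 0.54 in batch 2, and Chrm1 at -0.36 with the most reproducible probe set. In treated ENCCs against whole gut, that probe set turned P2rx1 (0.0488), Chrna7 (-0.34) and Chrm1 (-0.17). Leaving out 1 gut took P2ry1 from -0.46 to 0.58 and Gabra3 from -0.15 to 0.30, and Gabra3 was at -0.13 with the block and -0.044 on the uniform scale. In untreated ENCCs, leaving out 1 gut took Chrna7 from -0.23 to 0.82, Chrm3 from -0.0345 to 0.54, Htr4 from -0.29 to 0.34, P2rx3 from -0.31 to 0.18, P2ry12 from -0.46 to 0.31 and Grm5 from -0.08 to 0.48. Without the doubted array of untreated gut 3, signs turned for Chrna7 (-0.227), Htr4 (-0.13), P2ry12 (0.0922) and Grm5 (-0.08). Chrnb2 was at -0.25 with the median of its probe sets, P2rx3 at 0.24 with the block, and the uniform scale gave Htr4 -0.022, P2rx3 0.0295 and P2ry12 0.0418. The cause was not tested. Scores keep no brightness, so which members lie near background is not known.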
